A study of Mus musculus with 2 samples.

Results

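Enzymes that handle ornithine, arginine, proline and polyamines were followed in the skin of newborn mice. They were chosen by symbol, number 10 of the 32285 genes in the deposited matrices, and were all found there. The 8 described here are Oat, Odc1, Aldh18a1, Pycr1, Ass1, Srm, Sms and Sat1. The choice was made with earlier results of the same data in view, since Oat was already known to be far lower in the epithelium of the induced library. Its difference there is therefore a description.

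The study compared 1 control library with 1 library of the genotype miR-200b induced, both prepared from the back skin of mice at postnatal day 3. The control had the genotype Wildtype, and both libraries carried the treatment label Dox, so that label does not separate them. Epidermis and dermis were dissociated apart and mixed 30 to 70 before loading on the 10x Genomics platform, which counts RNA molecules at their 3′ ends by unique molecular identifiers (UMIs). The labels give neither the induction construct, nor the promoter or cell type that drives it, nor the number of animals per library. With 1 library per group there was no replicate check and no test between groups, and every interval below covers counting error only.

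Ornithine sits where several routes meet. It is made from arginine, ornithine aminotransferase (Oat) exchanges it in mitochondria with the glutamate semialdehyde that also leads to proline, and ornithine decarboxylase (Odc1) turns it into putrescine, the first polyamine. Polyamines are abundant in dividing cells, and Odc1 is a known gene of the growing hair follicle, while fibroblasts use much proline for collagen.

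The miR-200 family acts on messenger RNAs whose 3′ untranslated region (UTR) pairs with the seed, bases 2 to 8 of the microRNA. The mature sequences are shown because the library is named for one of them and because the seed decides which member genes carry a match. They are from RefSeq on GRCm38.p6 (chromosome 4, minus strand), 5′ to 3′, with the seed in capitals. miR-200b-3p and miR-429-3p share a seed, and miR-200a-3p has another.
mmu-miR-200b-3p: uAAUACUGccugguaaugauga
mmu-miR-429-3p: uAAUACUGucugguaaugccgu
mmu-miR-200a-3p: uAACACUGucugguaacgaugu

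The 7-base word CAGTATT, which pairs with the miR-200b seed, was searched on the transcript strand of the longest annotated 3′ UTR of each gene. It occurred in 2781 of 20854 genes with such a UTR (13.3%) and in 2 of the 8 genes described, Oat and Pycr1, once in each. Oat (ENSMUSG00000030934) spans chr7:132557478-132576398 of GRCm38. Its match lies on chr7:132557655-132557661 (minus strand, exon 10), at position 509 of a 692-base 3′ UTR. The Pycr1 match lies on chr11:120636132-120636138 (minus strand, exon 8), at position 1113 of a 1539-base 3′ UTR. Both are shown on the transcript strand, with the match in capitals, to place them beside the values of these genes. The miR-200a word CAGTGTT was present in 3590 genes (17.2%) and in 0 of the 8. A match is a description of the sequence.
Oat 3′ UTR: acatttattttCAGTATTtctttgaataa
Pycr1 3′ UTR: gtccctcttagCAGTATTcaggaagtggc

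The control library held 100409201 UMIs and the induced library 119705137. After filtering, 4816 cells of the control remained at a median of 14584.5 UMIs and 4890 of the induced library at 17850.5, and the libraries shared 8 barcodes among kept cells. Cell classes were rebuilt from marker genes, so "-like" is meant with every class name. Epithelial cells, defined by their keratins, numbered 3954 and 4099, and fibroblast-like cells 513 and 278. Most epithelial clusters came from 1 library: basal cells were clusters E5 and E24 in the control and E0, E17 and E18 in the induced library, and suprabasal cells were E10 and E6. Outer follicle cells were mostly E2, E3 and E11 in the control and E1, E4 and E22 in the induced library, with E8, E15, E19 and E20 holding at least 20 cells of each. Unnamed epithelial cells were mostly E7 and E14 in the control (320 and 217 cells, against 22 and 11) and E9 and E12 in the induced library (284 and 242 cells, against 45 and 4). Sebaceous gland cells numbered 209 and 3, or 551 and 15 with the cells removed as doublets kept. Cluster E17 was led by the stress genes Nfkbia, Atf3 and Irf1. The labelled induction was checked on Gm13648, the transcript that spans the miR-200b locus: it stood at 2.23 CPM (the share of a gene in the UMIs of a class, scaled to a common total) in control epithelium and 529.5 CPM in induced epithelium. In fibroblast-like cells it was at 0 and 26.7 CPM, and in melanocyte-like cells at 0 and 7.17 CPM. The highest named classes outside the epithelium were dermal papilla-like cells, at 0 and 85.9 CPM, and myeloid cells, at 0 and 71.1 CPM. Whether the Gm13648 counts stem from that locus or from an induction construct cannot be told apart. The list of general epithelial markers summed to 34938 CPM in induced epithelium, 1495 CPM in induced fibroblast-like cells and 1249 CPM in induced melanocyte-like cells, so epithelial RNA was counted in both. Its part in the Gm13648 counts outside the epithelium was not tested, and these are not read as expression there. Levels below are CPM within a class and are not compared between genes, because 3′ counting captures each transcript with its own efficiency.

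Oat stood at 145.9 CPM (143.2 to 148.6) in control epithelium, from 11261 UMIs, and at 10.2 CPM (9.55 to 10.8) in induced epithelium, from 999 UMIs. This is a 14.3-fold lower level (13.4 to 15.3) and a log2 ratio of -3.84 (-3.94 to -3.75). Of the 5860 genes that averaged 20 CPM or more in epithelium, 11 had a lower ratio once 5 CPM had been added to both libraries. With each cell thinned to 2000 UMIs, which left out 47 control and 261 induced cells, 24.2% of control cells (22.8 to 25.5) and 2.01% of induced cells (1.59 to 2.50) had an Oat UMI in 1 random draw. Without thinning the shares were 67.9% and 18.2%. No class lacked Oat in the control library, so no class served as its background.

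In the control library Oat was highest in basal epidermis, the dividing layer of the epidermis, at 428.6 CPM (416.8 to 440.7). Pericyte-like and fibroblast-like cells followed at 222.6 and 208.4 CPM with overlapping intervals, then suprabasal epidermis at 155.2 CPM, melanocyte-like cells at 116.9 CPM and unnamed epithelial cells at 113.9 CPM. The outer follicle stood at 90.8 CPM, endothelial-like cells at 77.3 CPM, hair matrix and inner root sheath at 51.9 CPM and sebaceous gland cells at 48.2 CPM. From the outer follicle down, neighbours in this order had overlapping intervals. The 24 granular cells had 9 UMIs, or 5.28 CPM.

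In the induced library the order was different. Among classes of at least 50 cells, the limit also used above, fibroblast-like cells stood first at 135.2 CPM (118.5 to 153.5) and melanocyte-like cells next at 118.9 CPM (104.1 to 135.2), with overlapping intervals. Basal epidermis, first in the control, was at 18.1 CPM (16.7 to 19.6), below both. The outer follicle stood at 9.22 CPM and suprabasal epidermis at 1.14 CPM. Of the smaller classes outside the epithelium, the 46 pericyte-like cells had 211.9 CPM (158.3 to 277.9), the 17 Schwann-like cells 182.3 CPM and the 26 myeloid cells 75.3 CPM (52.7 to 104.2).

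**Figure D1:**
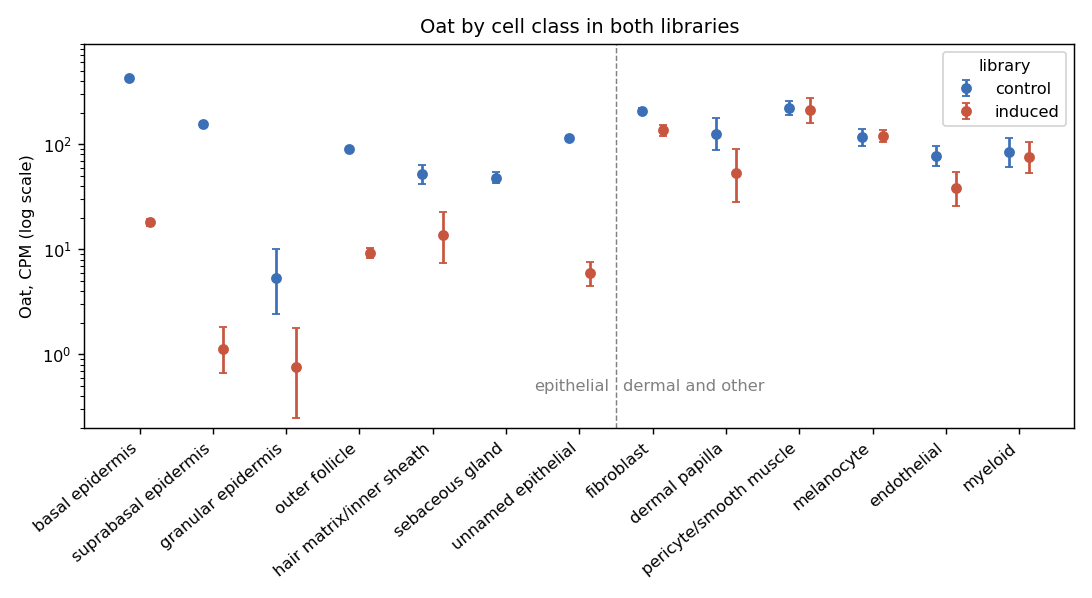
Oat level in each cell class with at least 20 cells in the library, in CPM on a log axis, control in blue and induced in red. Points are sums over the cells of a class, and bars are exact Poisson 95% intervals that cover counting error only. Every epithelial class to the left of the dashed line with both points is lower in the induced library, while melanocyte-like cells stand at 116.9 and 118.9 CPM.

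Within epithelium the size of the difference varied by compartment. In basal epidermis the log2 ratio was -4.56 (-4.69 to -4.44), with 4983 control and 612 induced UMIs. In suprabasal epidermis it was -7.09 (-7.88 to -6.41), with 1384 and 17 UMIs. The outer follicle, the sheath cells around the hair shaft, had -3.30 (-3.48 to -3.13), and 0 of its 6136 tested genes had a lower ratio with 5 CPM added. Hair matrix and inner root sheath, the cells that form the shaft and its lining, had -1.93 (-2.86 to -1.11), on 94 and 14 UMIs. Over the alternative settings this matrix ratio ran from -3.21 to -0.92. The -3.21 came from cells without a melanocyte marker UMI, on 42 and 2 Oat UMIs. All 4 intervals lay below 0, and those of basal epidermis, suprabasal epidermis and the outer follicle did not overlap each other. In basal epidermis the basal marker list summed to 48294 and 25930 CPM, the cell cycle list to 10237 and 6420 CPM and the dissociation stress list to 11924 and 6445 CPM. The suprabasal classes also differed in makeup: the basal marker list summed to 23888 CPM in the control and 2452 CPM in the induced library, and the outer follicle list to 1556 and 11323 CPM. In the outer follicle the cell cycle list summed to 14651 and 7610 CPM, and most of the class sat in different clusters in each library. The part of these differences in the results of the 3 classes was not tested.

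Clusters that held at least 20 cells of each library gave the comparison within a shared cluster. There were 9 of them, with 1198 control and 837 induced cells, and Oat was lower in the induced library in all 9, each with an interval below 0. Their log2 ratios ran from -3.88 to -1.82, with a median of -2.38. One of the 9, E9, with 45 control and 284 induced cells, had a median of 1119 UMIs, raised no marker of an epithelial class and was led by Col3a1 and Vim. Its epithelial marker list summed to 23488 and 28216 CPM and its fibroblast list to 3464 and 677 CPM. Without it the median of the other 8 was -2.47, with all 8 intervals below 0. Summed over the 9 clusters, Oat stood at 84.6 and 5.88 CPM, a log2 ratio of -3.85 (-4.15 to -3.55). This sum also moves with the cell numbers of each cluster, and in 8 of the 9 clusters the difference was smaller than the sum gives. Without E9 the sum gave -3.93. A follicle cluster led by cell division genes stood at 152.0 and 25.7 CPM. A cluster led by the companion layer keratin Krt75 had little Oat in either library, at 6.48 and 1.25 CPM. Over the 17 clusters with at least 20 control cells Oat ranged from 5.28 to 499.5 CPM with a median of 74.2 CPM, and over the 17 with at least 20 induced cells from 0.762 to 33.9 CPM with a median of 10.1 CPM. Over all epithelium the cell cycle list summed to 10189 and 5524 CPM, and its part in the result was not tested. The sebaceous gland list summed to 3524 and 445 CPM. Without sebaceous gland cells Oat stood at 154.5 and 10.2 CPM, a log2 ratio of -3.92 (-4.02 to -3.83).

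**Figure D2:**
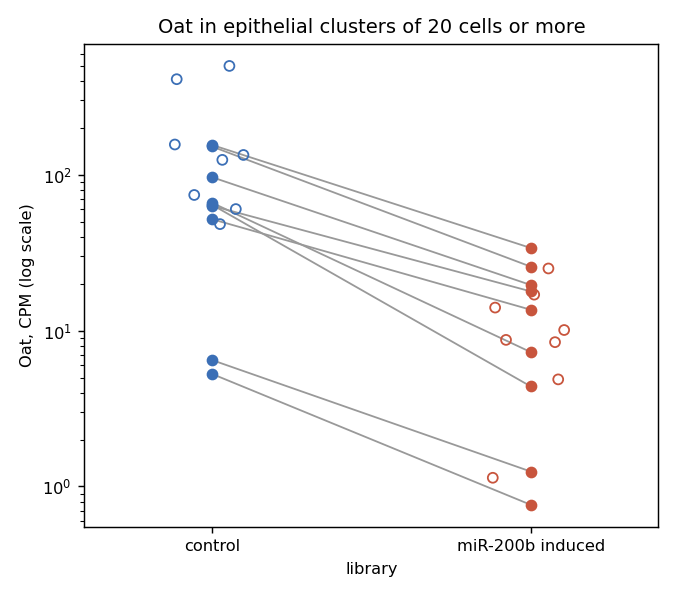
Oat level in epithelial clusters with at least 20 cells of the library, in CPM on a log axis. Filled points joined by a line are the 9 clusters with at least 20 cells from each library, and open points are clusters with fewer cells from the other library. All 9 lines slope down, and the highest induced cluster stands at 33.9 CPM.

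Outside the epithelium the Oat ratios were as follows. Fibroblast-like cells had a log2 ratio of -0.62 (-0.83 to -0.42). Endothelial-like cells stood at 77.3 and 38.3 CPM, a ratio of -1.01 (-1.65 to -0.41). Dermal papilla-like cells stood at 126.5 CPM (34 UMIs) and 53.2 CPM (13 UMIs), a ratio of -1.25 (-2.30 to -0.29). The endothelial and dermal papilla intervals overlapped that of hair matrix and inner root sheath and lay above those of the other 3 named epithelial compartments. Melanocyte-like cells had 0.02 (-0.31 to 0.36), so the interval holds 0 and leaves out the differences seen in every epithelial compartment above. The melanocyte-like classes differed in makeup, with the melanocyte list at 13388 and 25322 CPM and the cell cycle list at 9183 and 3344 CPM, and the part of this in the values of Oat and the other members there was not tested. Pericyte-like cells had -0.07 (-0.55 to 0.39), on 155 and 52 UMIs. Schwann-like cells had 0.03 (-0.74 to 0.75) and myeloid cells -0.16 (-0.85 to 0.52), and these intervals also hold 0. The gaps between these classes and epithelial cells were not tested, since each class has 1 library per group.

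Of the 8 genes described, 6 averaged 20 CPM or more in all epithelial cells, and 1 of them, Oat, differed by at least 2-fold with 5 CPM added. Over all 5860 tested genes 6.45% did, 4.22% lower and 2.24% higher. The rule that chose the members used this contrast, so nothing is read from the count. Summed over the 9 shared clusters 4 of 6 passed, Oat, Odc1, Ass1 and Sat1, beside 11.4% of all genes, and the same 4 passed without E9, beside 11.8%. Without sebaceous gland cells 1 passed, Oat, beside 5.7%. The median log2 ratio over all 8 (5 CPM added) was -0.23, beside -0.10 for all tested genes.

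Ass1, argininosuccinate synthase, rebuilds arginine from citrulline. Over all epithelium it stood at 56.8 and 50.3 CPM, a log2 ratio of -0.17 (-0.23 to -0.12), close to the median gene. In the 4 named compartments below it was lower by more, while unnamed epithelial cells had 53.0 and 51.6 CPM. Basal epidermis had 129.6 and 93.7 CPM (log2 -0.47), the outer follicle 45.4 and 30.2 CPM (log2 -0.59), suprabasal epidermis 38.6 and 14.4 CPM (log2 -1.42) and hair matrix and inner root sheath 161.3 and 49.6 CPM (log2 -1.70, -2.16 to -1.27). The induced library had 1336 basal cells and the control 592, and basal cells were the highest epithelial class for Ass1 in the induced library. Summed over the 9 shared clusters the log2 ratio was -1.66 (-1.87 to -1.45), a sum that also moves with the cell numbers of each cluster. Cluster by cluster the median was -0.85, with 3 intervals below 0 and 1 above 0. The cluster above 0 was that led by Krt75, at 5.18 and 10.7 CPM.

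**Figure D3:**
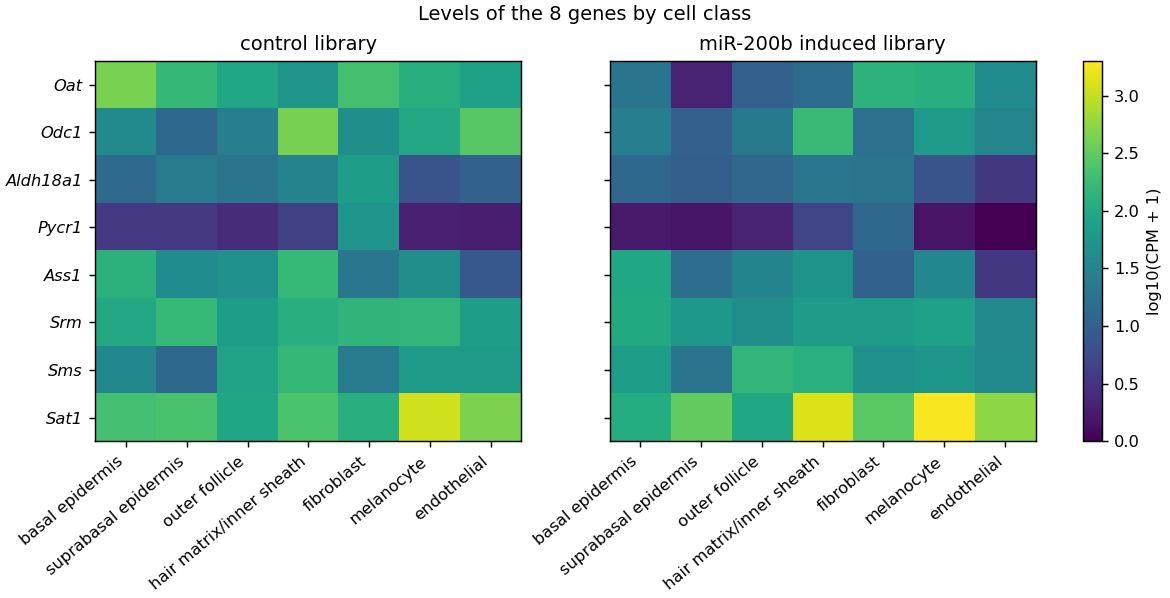
Levels of the 8 genes in 7 cell classes of the control library (left) and of the induced library (right), coloured by log10 of CPM plus 1 on 1 scale. Colours compare classes and libraries along a row, not genes. The Oat row darkens in the 4 epithelial classes of the induced library, Pycr1 is brightest in fibroblast-like cells, and Sat1 is brightest in melanocyte-like cells and, in the induced library, in hair matrix and inner root sheath.

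Aldh18a1 and Pycr1 make proline from glutamate, the first and last steps of that route. In fibroblast-like cells Aldh18a1 had 354 UMIs in the control, 70.7 CPM, and 31 UMIs in the induced library, 17.6 CPM, which gives a log2 ratio of -2.01 (-2.59 to -1.47). Pycr1 stood at 51.1 CPM (256 UMIs) and 11.9 CPM (21 UMIs), a ratio of -2.10 (-2.82 to -1.46). Both were highest in fibroblast-like cells among the control classes of at least 50 cells, and Pycr1 was at or under 3.32 CPM in every other one. In epithelium both were under the filter, Aldh18a1 at 19.0 and 10.9 CPM (log2 -0.80, or -0.58 without sebaceous gland cells, which held 313 of its 1466 control UMIs) and Pycr1 at 1.77 and 0.886 CPM (log2 interval -1.41 to -0.60). In basal epidermis Aldh18a1 stood at 12.6 and 12.1 CPM, with an interval from -0.34 to 0.22. It was lower in suprabasal epidermis, at 21.3 and 8.89 CPM (log2 -1.26, -1.59 to -0.93), and in the outer follicle, at 17.4 and 11.1 CPM (log2 -0.64, -0.84 to -0.45). Pycr1 had 30 and 25 UMIs in basal epidermis, a ratio of -1.80 (-2.63 to -0.99), and 23 and 9 in suprabasal epidermis, a ratio of -2.10 (-3.40 to -0.93).

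In fibroblast-like cells 5 of 7 tested members passed 2-fold with 5 CPM added, beside 7.98% of all 6230 tested genes. Lower were Odc1, Aldh18a1, Pycr1 and Srm, against 2.92% of all genes, and higher was Sat1, against 5.06%. With 20 CPM added 3 of 7 passed, beside 4.83%, and with a mean of at least 50 CPM 2 of 3, beside 8.31%. With cells thinned to 2000 UMIs 3 passed in 1 random draw and 5 in another, in which 9.25% of all genes did. The median over all 8 was -0.89, beside 0.0035 for all tested genes. The fibroblast-like classes differed in makeup and state: the fibroblast marker list summed to 73876 and 41740 CPM, with 0 of its 10 genes at 0 in either library, and the adipocyte list to 219.0 and 3897 CPM. The dissociation stress list summed to 2816 and 10258 CPM, and the cell cycle list to 4595 and 2575 CPM. A cluster of 3 control and 77 induced cells expressed the adipocyte genes Lpl and Fabp4 among its leading genes. Without it Aldh18a1 stood at 70.8 and 21.0 CPM (log2 -1.75) and Pycr1 at 51.1 and 18.2 CPM (log2 -1.49), while Sat1 went from a ratio of 1.28 to 0.30 (0.04 to 0.56) and no longer passed 2-fold. Sms, at 22.1 and 49.3 CPM without that cluster, then did, so that 5 of 7 passed beside 6.03% of all genes. The part of stress and cell division in the remaining differences was not tested.

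**Figure D4:**
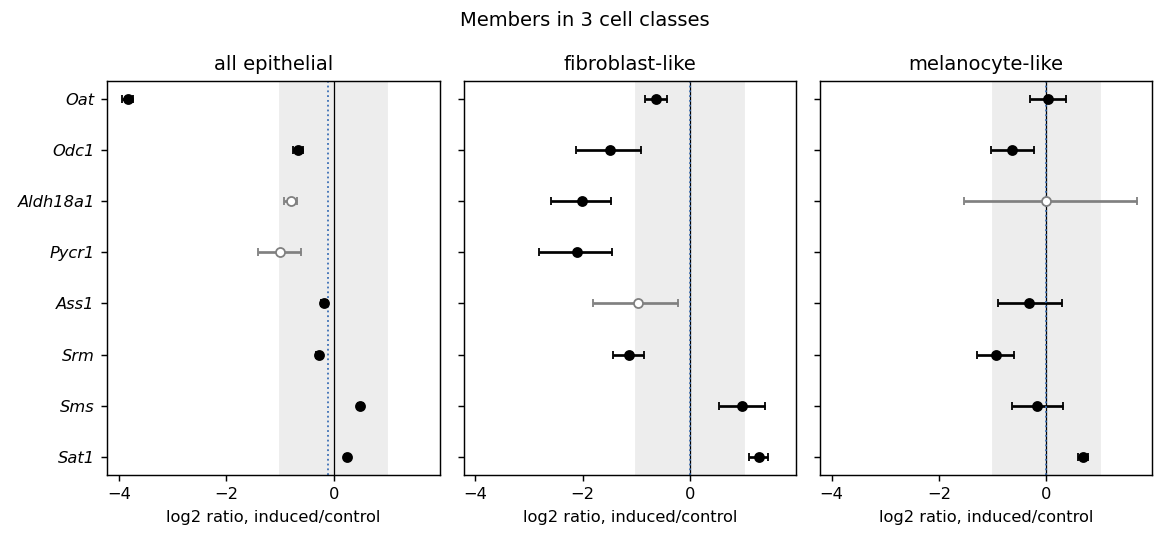
Log2 ratio of induced over control for each member in all epithelial, fibroblast-like and melanocyte-like cells, with exact conditional binomial 95% intervals (counting error only). Filled points had a mean of at least 20 CPM, open ones did not, members with under 5 UMIs in a library are left out, the grey band spans 2-fold and the dotted line is the median gene. Oat stands far to the left in epithelium, at -3.84, and at 0.02 in melanocyte-like cells.

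Odc1 makes putrescine and is the rate-limiting enzyme of polyamine synthesis. Over all epithelium it stood at 32.5 and 20.5 CPM, a log2 ratio of -0.66 (-0.75 to -0.58). Summed over the 9 shared clusters it stood at 49.4 and 17.5 CPM (log2 -1.50, -1.69 to -1.31), a sum that also moves with cell numbers. Cluster by cluster the median was -0.13, with 3 intervals below 0 and 1 above. Its level was concentrated in hair matrix and inner root sheath, at 423.2 CPM in the control and 167.2 CPM in the induced library (log2 -1.34, -1.59 to -1.10), where it is among the genes that lead the cluster, so its level there is a description of that cluster. With the cells removed as doublets kept, the matrix ratio was 0.10. Basal epidermis stood at 36.5 and 25.1 CPM and the outer follicle at 24.5 and 20.7 CPM. Endothelial-like cells, the second class for Odc1 in the control, had 277.7 CPM (316 UMIs) and 30.9 CPM (25 UMIs), a ratio of -3.17 (-3.82 to -2.58). It was the 1 member of 5 tested past 2-fold in that class, where 11.5% of 6359 genes were, 6.98% lower. In that class the cell cycle list summed to 12280 and 2711 CPM and the dissociation stress list to 6449 and 11406 CPM. The adipocyte list summed to 3072 and 12478 CPM there, with 5 of its 8 genes at 0 in each library. The part of the 3 lists in the Odc1 and Oat differences of that class was not tested.

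Srm and Sms add aminopropyl groups to make spermidine and spermine. Srm stood at 84.7 and 69.7 CPM in epithelium (log2 -0.28) and differed by compartment. Summed over the 9 shared clusters it stood at 64.0 and 30.0 CPM (log2 -1.10, -1.25 to -0.95). Cluster by cluster the median was -0.76, with 5 intervals below 0 and 0 above. It was lower in suprabasal epidermis, at 162.6 and 57.3 CPM (log2 -1.50, -1.63 to -1.38), and in the outer follicle, at 68.1 and 42.0 CPM (log2 -0.70). In basal epidermis the levels were 96.0 and 100.3 CPM, with an interval from -0.03 to 0.16. Unnamed epithelial cells as a whole stood at 81.8 and 104.5 CPM (log2 0.35, 0.22 to 0.48), a value that sets different clusters beside each other: Srm stood at 47.6 CPM in the control cells of E7 and 113.1 CPM in the induced cells of E12. Fibroblast-like and melanocyte-like cells were lower, at log2 ratios of -1.14 and -0.94, beside the differences in makeup of both classes given with their other values.

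Sms ran the other way in most of the epithelium. It stood at 57.0 and 80.6 CPM over all epithelial cells (log2 0.50, 0.45 to 0.55). Basal epidermis had 33.5 and 68.3 CPM (log2 1.03, 0.87 to 1.19) and the outer follicle 79.5 and 147.6 CPM (log2 0.89). Hair matrix and inner root sheath, the highest control class of at least 50 cells, had 155.8 and 124.4 CPM (log2 -0.32, -0.64 to -0.02). Sms was higher in the basal, suprabasal and outer follicle cells of the induced library and lower in the matrix. Over the alternative settings the suprabasal ratio ran from -0.40 to 0.61 and the matrix ratio from -0.55 to 0.58, with -0.40 and 0.58 where cells were thinned to 2000 UMIs in 1 random draw. In fibroblast-like cells it stood at 22.6 and 44.3 CPM. Dermal papilla-like cells, 43 and 89 in number, were the highest class in both libraries, at 316.2 CPM (252.6 to 391.0) and 270.1 CPM (208.9 to 343.6).

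Sat1 acetylates spermidine and spermine for breakdown or export. It was highest in melanocyte-like cells of both libraries, at 1159.8 and 1869.9 CPM. In hair matrix and inner root sheath it stood at 233.2 CPM (422 UMIs) and 1354 CPM (1393 UMIs), a log2 ratio of 2.54 (2.38 to 2.70), and the median matrix cell had 2 and 16.5 UMIs. With doublets kept, when the class held 242 control cells in place of 63, the ratio was 3.76. Basal epidermis was lower in the induced library, at 205.9 and 110.0 CPM (log2 -0.90, -0.98 to -0.83), and suprabasal epidermis higher, at 225.4 and 325.2 CPM. The matrix cells held melanocyte marker UMIs in 28 of 63 control and 30 of 52 induced cells, with list sums of 30.9 and 79.7 CPM, and 3 and 2 of its 8 genes were at 0. In the 35 control and 22 induced matrix cells without such a UMI, Sat1 stood at 351.5 and 1709.6 CPM, a ratio of 2.28. The matrix class also differed in makeup: the cell cycle list summed to 19464 and 10165 CPM, the outer follicle list to 2837 and 1083 CPM and the matrix and inner root sheath list to 2896 and 5677 CPM, and their part in the matrix results was not tested. Odc1 in the cells without a melanocyte marker UMI had 255.8 and 171.2 CPM, a ratio of -0.58 (-1.02 to -0.16).

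By compartment the counts past 2-fold are given without Oat, whose difference in epithelium chose the set. They describe the same contrast and nothing is read from them. In suprabasal epidermis 2 of 3 other tested members passed, Ass1 and Srm, both lower, beside 9.95% of 4786 genes, with 4.87% lower. In hair matrix and inner root sheath 3 of 6 passed, Odc1 and Ass1 lower and Sat1 higher, beside 9.56% of 5995 genes, 4.9% lower and 4.65% higher. Both lower calls there, and that of Oat, fell under 2-fold in some setting: Ass1 had a log2 ratio of -0.58 and Odc1 0.10 with doublets kept, Odc1 had -0.58 without cells holding a melanocyte marker UMI, and Oat had -0.92 when cells were thinned to 2000 UMIs. Basal epidermis and outer follicle each had 0 of 5, beside 5.17% and 4.81% of genes, with 3.08% and 2.54% lower. In melanocyte-like cells 0 of 6 passed, beside 3.93% of 6052 genes. Granular epidermis, with 24 control cells, had 1 of 2, Srm, which was lower, beside 9.75% of 4338 genes, 6.09% lower.

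**Figure D5:**
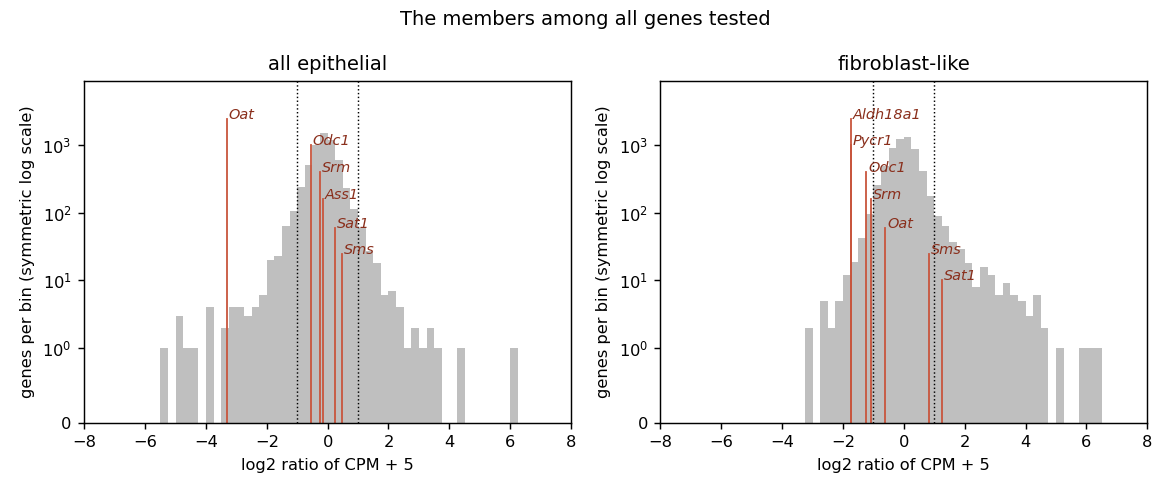
Distribution of log2 ratios (5 CPM added to both libraries) over the 5860 genes tested in epithelium and the 6230 tested in fibroblast-like cells, in bins of 0.25, on a symmetric log count axis. Red lines mark the tested members and dotted lines mark 2-fold. In epithelium the 5 tested members other than Oat lie between the dotted lines, and in fibroblast-like cells Aldh18a1 and Pycr1 lie to the left of them.

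The other genes of these routes were read from a list of 50, of which 49 are in the matrices and 25 were tested in each of the 2 classes. In epithelium 2 were lower and 1 higher past 2-fold, beside 4.22% and 2.24% of all genes, with a median log2 ratio of -0.09 beside -0.10 for all genes. Smox, spermine oxidase, stood at 35.2 and 88.2 CPM (log2 1.32, 1.26 to 1.39). Glul, glutamine synthetase, stood at 79.9 and 24.0 CPM (log2 -1.74, -1.81 to -1.67), and Ddah2, named here after its values were seen, was the other lower gene. The polyamine group had 0 lower and 1 higher of 8 tested, and the proline group 0 of 4, counts too small to set apart from those shares. In fibroblast-like cells 2 were lower and 1 higher, beside 2.92% and 5.06% of all genes. P4ha2, a collagen prolyl hydroxylase, stood at 281.5 and 116.4 CPM (log2 -1.27), and Glul was higher there, at 24.0 and 98.3 CPM (log2 2.04, 1.69 to 2.38). The second lower gene was Gamt, also named after its values were seen. Neither Smox, Glul nor P4ha2 had a miR-200b match.

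Over 20 class-by-library units of at least 50 cells, the genes whose log2(CPM + 5) followed Oat most closely among 5859 included Slc25a4 (Pearson r 0.87), Impad1 (0.87), Serf2 (0.86) and Cfl2 (0.84). With 1 CPM added in place of 5, Slc25a4 and Cfl2 stayed among the 5 closest genes, while Impad1 and Serf2 did not. The units share 2 libraries, and r is a description with no test. Slc25a4, the mitochondrial ADP/ATP carrier, stood at 320.2 and 78.7 CPM in control and induced epithelium. Cfl2, an actin-severing cofilin, stood at 78.4 and 28.5 CPM. Impad1 and Cfl2 each had 2 miR-200b matches, in 3′ UTRs of 5220 and 2308 bases. Slc25a4 and Serf2 had 0, in 666 and 2636 bases. Of all genes with a 3′ UTR, 13.3% had a match. The units are split by library, so genes picked for following Oat tend to be lower in induced epithelium by selection. Nothing is read from their matches.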

How the data were processed

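The deposited values were raw UMI counts per gene and barcode, made by the authors with Cell Ranger 6.0.0 on mm10, per the submitters' processing notes. Members and lists were chosen with earlier results of these data known. Barcodes with at least 1000 UMIs, 500 genes and under 15% mitochondrial UMIs were kept, and the 7% with the highest Scrublet scores per library were removed, because its automatic threshold marked 3 control and 1 induced cell. Cells were clustered with scanpy 1.11.5 (2000 variable genes, 30 components, 15 neighbours, Leiden resolution 1.0). Clusters above 5000 CPM of summed keratins were epithelial and were clustered again after centring by library. A name needed 3 markers raised 1.5-fold and detected in 25% of cells. Marker naming thresholds were set with the data in view. UMIs were summed per class and library (CPM), with exact Poisson 95% intervals and exact conditional binomial intervals for ratios. Share intervals are Clopper-Pearson. Ratios were run on simulated Poisson counts, the model that their intervals assume. That run held no variation between cells or libraries, so it cannot speak to the contrast of 1 library per group. The 8 members described were named in every class of at least 50 cells per library; smaller classes are given where stated. Pathway genes were named past 2-fold with at least 50 CPM. Some items that these rules select are not reported here. Alternatives covered filters, doublets, resolution, scaling, thinning and pseudocounts. UTRs and loci are from GENCODE vM21 on GRCm38.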

Additional observations from a re-analysis of the deposited data

Results flagged for a closer look

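Sms and Sat1 went in opposite directions in different cell classes of the same comparison, among fibroblast-like, melanocyte-like, endothelial-like, all epithelial and the 4 named epithelial classes compared. Srm stood at -1.50 in suprabasal epidermis and 0.35 in unnamed epithelial cells, but the unnamed class was made of different clusters in each library, and over the 9 shared clusters 5 Srm intervals lay below 0 and 0 above. With 1 library per group these differences were not tested. Sms had a log2 ratio of 0.50 in all epithelial cells and -0.73 in endothelial-like cells, and within epithelium 1.03 in basal epidermis and -0.32 in hair matrix and inner root sheath. The endothelial Sms ratio stayed below 0 in every setting but ran from -0.92 to -0.02, the last with cells thinned to 2000 UMIs. The matrix ratio did not keep its sign, with 0.58 when cells were thinned. Without cells holding a melanocyte marker UMI the matrix ratio was -0.12 (-0.61 to 0.36). Sat1 had 2.54 in hair matrix and inner root sheath (2.28 to 3.76 over the settings) and -0.90 in basal epidermis.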

How the results depend on the processing

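No paired analysis was possible because each group is 1 library. Oat in all epithelial cells kept its direction under every alternative run, with log2 ratios from -3.97 to -3.55. It was -3.55 with every cell weighted equally, -3.74 with totals without mitochondrial, ribosomal, haemoglobin and keratin genes, -3.61 with cells thinned to 2000 UMIs, -3.74 relative to the median gene, and -3.97 without cells holding a melanocyte marker UMI, an alternative chosen after seeing the data. In the clusters shared by both libraries 4 members passed 2-fold in epithelium, Oat, Odc1, Ass1 and Sat1, in place of 1, beside 11.4% of all genes there. These are sums over the 9 clusters, which also move with cell numbers: within clusters the median log2 ratios were -0.13 for Odc1 (3 intervals below 0, 1 above), -0.85 for Ass1 and 0.52 for Sat1 (1 below, 5 above). In fibroblast-like cells 3 passed with 20 CPM added and 2 of 3 tested with a mean of at least 50 CPM, in place of 5, beside 4.83% and 8.31% of all genes. When cells were thinned 3 passed in 1 draw and 5 in a second draw, made over all genes after seeing the data, in which 9.25% of all genes passed. Odc1 in hair matrix and inner root sheath went from -1.34 to 0.10 with doublets kept, when that class held 242 control cells in place of 63. Without the low-depth cluster E9, also chosen after seeing the data, 4 members still passed in the shared clusters. Of 668 values of single members under alternatives, 576 stayed within their counting interval and 91 moved beyond it. The remaining 1, Odc1 in hair matrix and inner root sheath with doublets kept, was past 2-fold and reversed. Among all 668, 17 changed sign. The causes were not tested. Low counts limit Pycr1 outside fibroblast-like cells.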
